A study of Mus musculus with 12 samples.

Results

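The genes of fatty acid synthesis were examined in maps of histone H3 acetylated at lysine 9 (H3K9ac) in adult mouse liver. The 10 members were Srebf1, Mlxipl, Acly, Me1, Acaca, Acacb, Fasn, Elovl6, Scd1 and Thrsp, chosen by name from 21911 protein-coding genes. For each member, the peaks overlapping the gene body or 5 kb either side of its start (GENCODE M21, mm10) were taken from each of 6 peak lists. This gave 157 of the 102889 peaks in the lists. The study set 2 livers of the strain C57BL/6J (B6), which is that of the reference genome, against 2 livers of MSM/Ms (MSM), an inbred line of Japanese wild origin. It added 1 liver from each reciprocal cross, F1 BM with a B6 dam and MSM sire and F1 MB with an MSM dam and B6 sire. All mice were labelled adult and no treatment of the animals was given, and all H3K9ac libraries were made with the same antibody. Each F1 cross had 1 library, so F1 values have no replicate error.

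Fatty acid synthesis turns citrate made from glucose into long-chain fatty acids, and in mouse liver it is switched on by feeding. Insulin acts through SREBP-1c, a product of Srebf1, and glucose acts through ChREBP, the product of Mlxipl. Both are transcription factors that bind the promoters of the enzyme genes. ATP citrate lyase (Acly) makes cytosolic acetyl-CoA, malic enzyme (Me1) supplies NADPH, the acetyl-CoA carboxylases (Acaca, Acacb) make malonyl-CoA, fatty acid synthase (Fasn) builds palmitate, and Elovl6 and stearoyl-CoA desaturase 1 (Scd1) lengthen and desaturate it. H3K9ac marks active promoters and enhancers, usually as blocks on the nucleosomes that flank a transcription start.

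The peak lists differed in size. They held 22968 peaks in B6 replicate 1, 11619 in B6 replicate 2, 17310 in MSM replicate 1, 17584 in MSM replicate 2, 20173 in F1 BM and 13235 in F1 MB. Read counts are not part of the lists, sequencing depth was not used here, and a missing peak cannot be told from a peak too weak for that library. Start peaks were present in every library at 8 of 9 hepatocyte marker genes, the exception being the annotated start of Hnf4a. None of 4 Kupffer cell, 4 adipocyte and 4 other-tissue markers had a start peak. Of the 4 endothelial markers, 2, 0, 1, 3, 3 and 0 had one in B6 replicates 1 and 2, MSM replicates 1 and 2, F1 BM and F1 MB. The stellate marker Dcn had one in F1 BM, and Sox9 (cholangiocyte) and Ptprc (lymphocyte) had one in B6 replicate 1. The part of these cells in the results was not tested.

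Acetylation at the starts of the pathway was the common state. A peak within 1 kb of the gene start was found in all 6 libraries at 7 of the 10 members, against 5166 of 21911 protein-coding genes (23.6%). The count was 6 in lists of the same number of peaks (19% of all genes), with a stricter threshold (19.3%) or with an overlap of at least 100 bp (23.4%). It was 5 in lists of the same covered length (11.4%) or within 500 bp of the start (21.7%). When every annotated transcript start was considered, a choice made after seeing the data, the count was 9 of 10 members against 5710 genes (26.1%). The single exception was Scd1. Cholesterol synthesis genes reached 9 of 21 on both measures, and fatty acid oxidation and ketogenesis genes reached 12 of 19 and 13 of 19. These counts are descriptions of lists of unequal size and were not tested. Among the genes of each list with a peak at some annotated start, the strongest fold enrichment there had a median percentile within its library of 90.3, 80.9, 90.9, 91.9, 88.6 and 55.0 for the members, in the order B6, MSM, F1 BM and F1 MB. The same medians over all protein-coding genes with such a peak were 72.9, 64.5, 67.8, 67.1, 66.2 and 64.5. Only in F1 MB was the members' median below that of all genes. The fatty acid oxidation and ketogenesis genes had medians of 89.2, 87.5, 82.5, 80.3, 88.7 and 90.3, above the members in B6 replicate 2 and F1 MB and nearly the same in F1 BM.

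Fold enrichment here is the ratio of signal at the peak over the background used by the authors' peak caller. Members varied widely in it. In B6 replicate 1 the strongest peak of a member ranged from 6.01-fold in Thrsp to 16.8-fold in Mlxipl. B6 replicate 2 ran from 3.69-fold in Fasn to 9.72-fold in Srebf1.

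**Figure D1:**
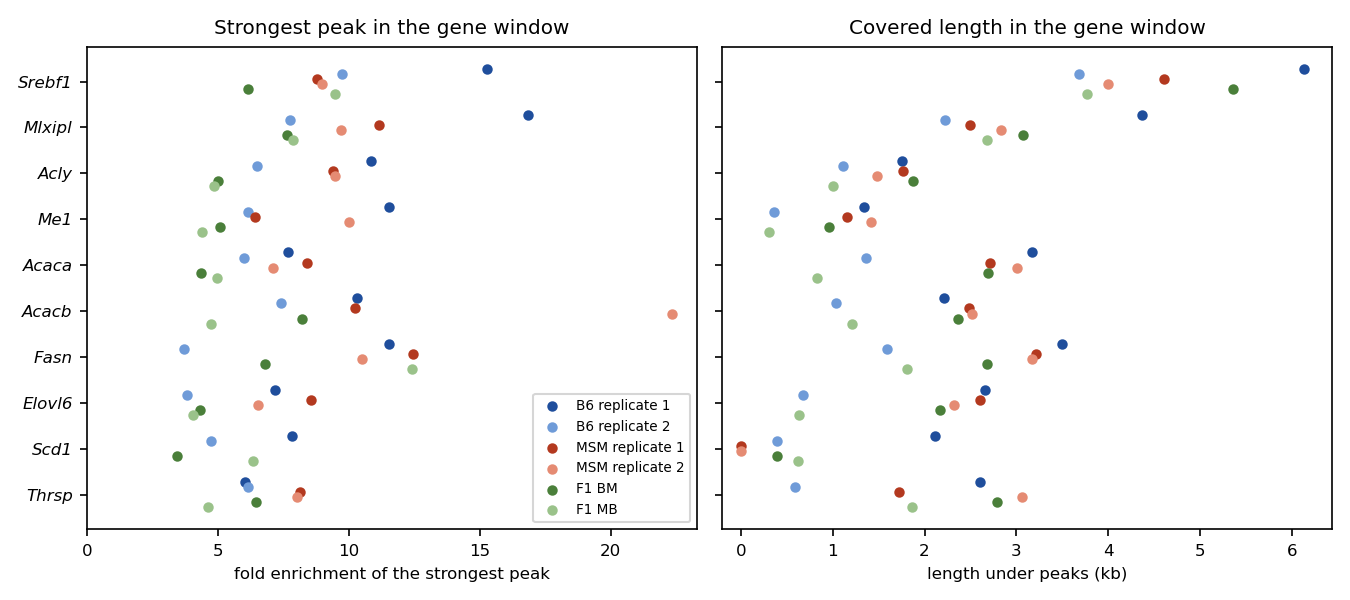
Fold enrichment of the strongest H3K9ac peak (left) and length under peaks in kb (right) in the window of each member, with 1 point per library. Scd1 has no point for MSM on the left and lies at 0 on the right, and B6 replicate 2 lies below B6 replicate 1 for all members in covered length.

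Promoter sequences from RefSeq (GRCm38.p6, B6 sequence) are shown for starts of the regulators, the substrate-supply enzymes, Fasn and Thrsp. Each start shown had a peak within 1 kb in every library, except the upstream start of Mlxipl, with a peak only in B6 replicate 1. Each window holds 250 bases before and 50 bases after a RefSeq start, and 9 of the 10 members have an entry, in 13 windows. Capitals mark 5 motifs searched on either strand, with overlaps kept. The sterol response element was searched as TCACNCCAC, which 1.24% of 32851 promoter windows of this length hold. The E-box was searched as CACGTG, held by 7.15% of the windows. A CCAAT box was found in 37.4% of the windows, and the GC box, searched as GGGCGG, in 35.7%. The TATA box was searched as TATAAA, held by 13.6%. Hormone receptor half-sites were searched in pairs with 4 bases between them (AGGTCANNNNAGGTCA), in 5 windows, or 1 base between them (AGGTCANAGGTCA), in 13 windows, and in none of a member.

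Srebf1 has 3 RefSeq starts on the minus strand of chromosome 11, all with a peak within 1 kb in every library. The outermost is at chr11:60222532-60222831, the start of isoform a (SREBP-1a) at chr11:60220578-60220877 and that of isoform c (SREBP-1c) at chr11:60210422-60210721.
Srebf1 outer start: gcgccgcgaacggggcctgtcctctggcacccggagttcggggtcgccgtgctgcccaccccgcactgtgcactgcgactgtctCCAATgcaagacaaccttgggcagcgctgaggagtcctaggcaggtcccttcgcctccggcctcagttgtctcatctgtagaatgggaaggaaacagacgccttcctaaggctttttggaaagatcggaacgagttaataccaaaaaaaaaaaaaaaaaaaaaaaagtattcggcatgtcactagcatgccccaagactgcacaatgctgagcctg
Srebf1 isoform a start: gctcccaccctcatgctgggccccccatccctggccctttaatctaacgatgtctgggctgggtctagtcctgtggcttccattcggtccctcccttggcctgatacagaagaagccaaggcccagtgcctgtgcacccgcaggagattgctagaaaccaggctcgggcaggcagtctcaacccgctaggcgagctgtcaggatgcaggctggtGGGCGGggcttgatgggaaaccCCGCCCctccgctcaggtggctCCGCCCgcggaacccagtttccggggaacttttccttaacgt
Srebf1 isoform c start: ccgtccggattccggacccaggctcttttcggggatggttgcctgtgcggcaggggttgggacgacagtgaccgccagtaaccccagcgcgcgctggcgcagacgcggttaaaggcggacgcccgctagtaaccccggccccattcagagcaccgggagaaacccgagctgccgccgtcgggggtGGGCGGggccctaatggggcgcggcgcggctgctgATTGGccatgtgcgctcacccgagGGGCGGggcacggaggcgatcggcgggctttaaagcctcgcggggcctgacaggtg
The SREBP-1a window has 3 GC boxes and the SREBP-1c window has 2 with a CCAAT. None of the 3 holds TCACNCCAC or CACGTG in these letters. CpG dinucleotides number 17, 14 and 36, against a median of 7 over all promoter windows.

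Mlxipl has RefSeq starts at chr5:135089640-135089939 and, 17.0 kb downstream, at chr5:135106641-135106940, both on the plus strand.
Mlxipl upstream start: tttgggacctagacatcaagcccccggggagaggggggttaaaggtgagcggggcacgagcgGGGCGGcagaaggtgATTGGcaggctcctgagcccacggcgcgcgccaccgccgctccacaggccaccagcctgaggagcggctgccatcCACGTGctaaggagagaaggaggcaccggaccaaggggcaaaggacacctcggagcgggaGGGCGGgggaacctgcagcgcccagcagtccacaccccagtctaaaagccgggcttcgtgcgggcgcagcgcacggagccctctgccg
Mlxipl downstream start: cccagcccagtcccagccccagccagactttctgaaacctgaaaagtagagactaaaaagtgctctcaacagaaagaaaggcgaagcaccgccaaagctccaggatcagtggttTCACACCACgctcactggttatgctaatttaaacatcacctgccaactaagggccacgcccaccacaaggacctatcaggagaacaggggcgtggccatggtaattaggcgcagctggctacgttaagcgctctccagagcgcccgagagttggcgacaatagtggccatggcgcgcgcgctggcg
The upstream window, at the start known to give ChREBP-beta, contains a CACGTG at position -98 from the start. The downstream window, at the start known to give ChREBP-alpha, contains TCACACCAC at -136, the only sterol response element match among the 13 windows of the members.

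Windows of 4 further members were chr11:100527951-100528250 (Acly), chr9:86695865-86696164 (Me1), chr11:120824498-120824797 (Fasn, chosen after its values were seen) and chr7:97417501-97417800 (Thrsp), all on the minus strand.
Acly: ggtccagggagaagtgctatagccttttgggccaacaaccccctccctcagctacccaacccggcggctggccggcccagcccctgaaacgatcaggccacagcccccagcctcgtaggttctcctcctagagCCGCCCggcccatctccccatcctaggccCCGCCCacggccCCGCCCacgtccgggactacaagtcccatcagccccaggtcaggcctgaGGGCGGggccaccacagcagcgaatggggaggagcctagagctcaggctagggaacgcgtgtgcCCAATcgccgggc
Me1: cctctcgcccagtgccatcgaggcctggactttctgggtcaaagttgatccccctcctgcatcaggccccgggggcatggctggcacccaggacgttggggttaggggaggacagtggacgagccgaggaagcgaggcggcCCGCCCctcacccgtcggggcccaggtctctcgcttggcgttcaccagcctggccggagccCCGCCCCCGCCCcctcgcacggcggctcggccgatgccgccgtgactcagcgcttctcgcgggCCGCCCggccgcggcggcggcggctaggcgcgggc
Fasn: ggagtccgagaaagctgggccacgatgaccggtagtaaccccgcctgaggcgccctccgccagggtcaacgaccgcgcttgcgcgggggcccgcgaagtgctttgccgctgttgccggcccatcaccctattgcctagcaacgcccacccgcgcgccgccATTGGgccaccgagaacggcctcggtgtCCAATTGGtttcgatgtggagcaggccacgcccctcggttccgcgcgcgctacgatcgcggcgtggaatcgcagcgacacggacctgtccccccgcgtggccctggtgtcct
Thrsp: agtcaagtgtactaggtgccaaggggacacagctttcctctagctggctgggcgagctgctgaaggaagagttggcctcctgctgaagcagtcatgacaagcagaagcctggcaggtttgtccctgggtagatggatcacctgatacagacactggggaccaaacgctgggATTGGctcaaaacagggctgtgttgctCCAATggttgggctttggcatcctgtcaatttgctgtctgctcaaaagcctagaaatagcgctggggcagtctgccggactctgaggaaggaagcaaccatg
Acly and Me1 windows each carry 4 GC boxes, Fasn has 3 CCAAT boxes with 2 of them overlapping, and Thrsp has 2 CCAAT boxes and no GC box. The Fasn window contains 39 CpG dinucleotides, the Thrsp window 4. The RefSeq windows of Acaca and Acacb lie at starts with no peak within 1 kb in any library and are not printed.

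Srebf1, on chromosome 11 (60199089 to 60222581), was acetylated at each of its 3 starts. At the outer start the strongest peak was 10.5-fold and 3.84-fold in B6 replicates 1 and 2, 8.79-fold and 7.42-fold in MSM replicates 1 and 2, 6.13-fold in F1 BM and 4.79-fold in F1 MB. The B6 libraries lay on either side of both MSM libraries. The region from 1.87 to 2.74 kb downstream, at the SREBP-1a start, had 9.07-fold and 3.41-fold enrichment in B6, 8.45-fold and 5.55-fold in MSM, 3.67-fold in F1 BM and 5.76-fold in F1 MB.
The peak just after the SREBP-1c start, 12.2 to 15.1 kb from the gene start, was the strongest of Srebf1 in 5 of the 6 libraries. It reached 15.3-fold and 9.72-fold in B6, 8.23-fold and 8.96-fold in MSM, 6.13-fold in F1 BM and 9.47-fold in F1 MB. Here both B6 values lay above both MSM values, by a smaller margin than the gap between the B6 replicates (two-sided exact permutation p = 0.3333, n = 2 each, the smallest this design allows). Of the 7732 regions with a peak in all 4 parental libraries, 11% had both B6 values above both MSM values, and 10.5% the reverse. Its percentile within the library was 98.0 in each B6 list, 88.2 and 90.1 in the MSM lists, 92.3 in F1 BM and 95.9 in F1 MB. A separate small peak just before this start, at 11.5 to 11.9 kb, was called in B6 replicate 1 and in both hybrids.

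Mlxipl, on chromosome 5 (135089890 to 135138382), was acetylated mainly at the ChREBP-alpha start. The peak from 17.0 to 18.5 kb had 16.8-fold and 7.73-fold enrichment in B6, 8.97-fold and 9.68-fold in MSM, 7.62-fold in F1 BM and 7.87-fold in F1 MB. A region behind it, at 18.6 to 20.3 kb within an intron, was also called in all 6 libraries, from 6.01-fold in F1 BM to 13.1-fold in B6 replicate 1. The upstream ChREBP-beta start had a peak only in B6 replicate 1, the longest list, with 6.19-fold enrichment over 843 bp. The peak calls of the B6 replicates therefore differ at this start, where a missing peak may be a weak one, and no strain difference can be read there.

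**Figure D2:**
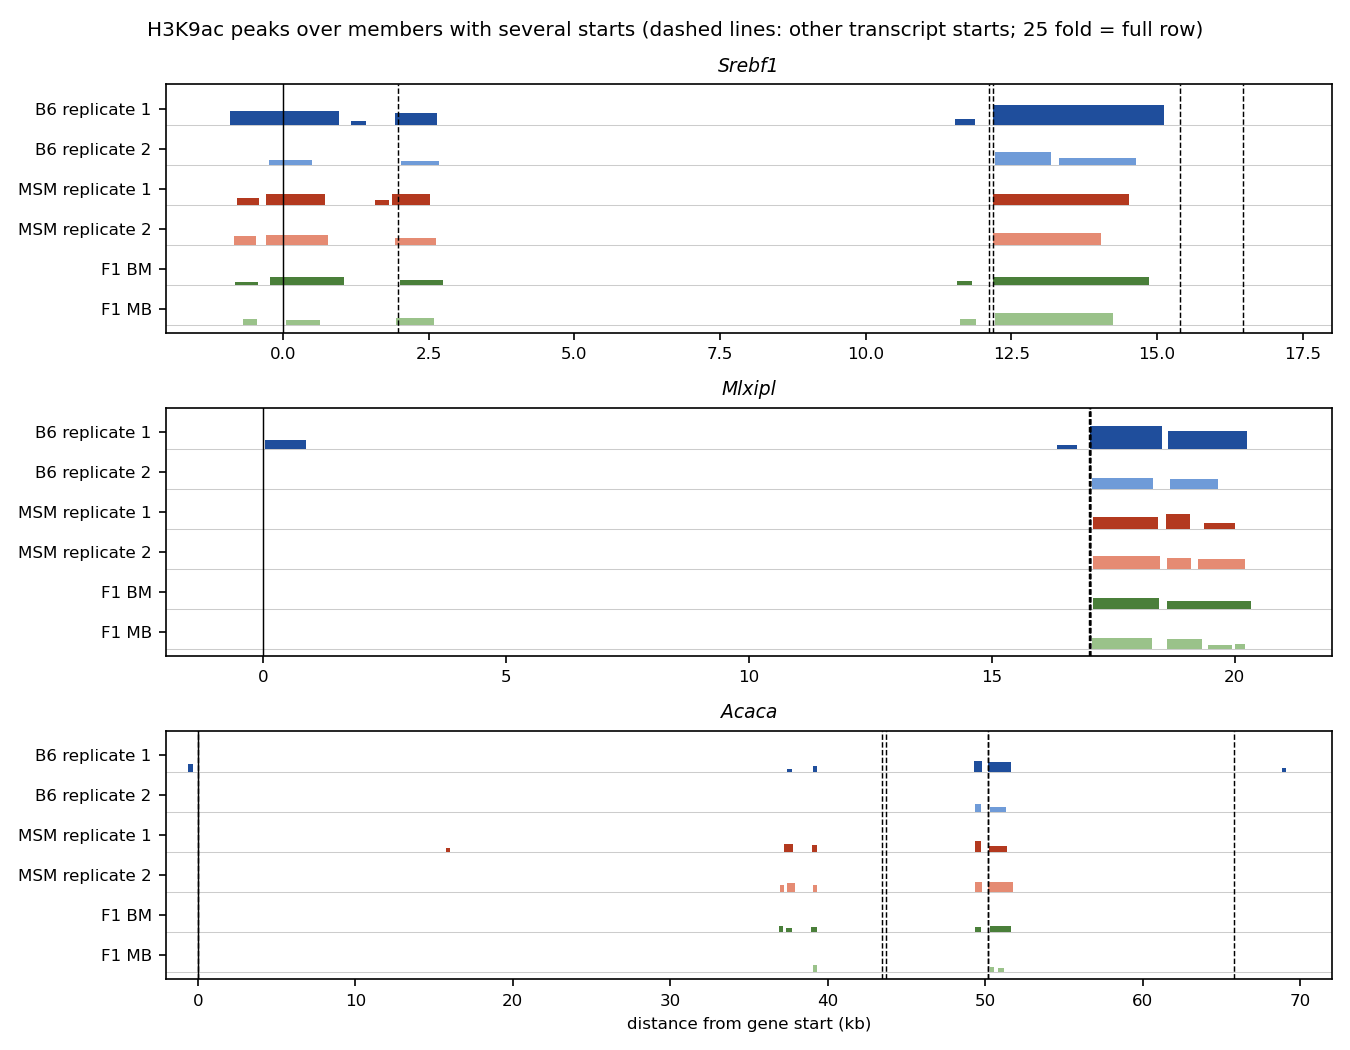
H3K9ac peaks of the 6 libraries over Srebf1, Mlxipl and Acaca by distance from the gene start in kb, with bar height giving fold enrichment (25-fold fills a row). Solid lines mark the gene start and dashed lines other annotated transcript starts, and the bars gather at 12.2 kb in Srebf1, 17.0 kb in Mlxipl and 50.2 kb in Acaca in every library.

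Among the enzymes of substrate supply, Acly (chromosome 11, 100476353 to 100528000) carried 2 peaks in every library with the start base uncovered between them. The upstream peak had 10.1-fold and 6.49-fold enrichment in B6, 9.39-fold and 9.48-fold in MSM, 5.001-fold in F1 BM and 4.83-fold in F1 MB. The downstream peak had 10.9-fold and 5.12-fold in B6, 5.98-fold and 4.12-fold in MSM, 3.66-fold in F1 BM and 2.95-fold in F1 MB. The upstream side was the stronger in 5 libraries, B6 replicate 1 being the exception.
Me1 (chromosome 9, 86581371 to 86695953) had a downstream peak of 11.5-fold and 6.13-fold in B6, 5.76-fold and 9.98-fold in MSM, 5.06-fold in F1 BM and 4.39-fold in F1 MB. Its upstream peak was missing from B6 replicate 2 and F1 MB, the shortest lists. In no library did a peak cover the start base of Acly or Me1. Over all genes with a start peak, the start base lay under a peak in 39.9%, 18.3%, 24.2%, 22.8%, 19.8% and 20.1% of genes in B6 replicates 1 and 2, MSM replicates 1 and 2, F1 BM and F1 MB. Among members the same counts were 4 of 10, 2 of 8, 3 of 7, 5 of 7, 3 of 8 and 1 of 8.

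The carboxylases differed in where the mark lay. Acacb (chromosome 5, 114146535 to 114250761), whose product at the mitochondrial surface restrains fatty acid import, had a block over its gene start, covering the start base in every library. Its fold enrichment was 10.3 and 7.39 in B6, 10.2 and 22.4 in MSM, 8.19 in F1 BM and 4.71 in F1 MB. MSM replicate 2 stood above the rest at percentile 99.97 of its list. In fold, MSM replicate 1 lay between the B6 libraries. By percentile it lay above both, at 95.1 against 89.5 and 91.1. An intronic region at 8.97 to 9.86 kb was called in B6 replicate 1, both MSM libraries and F1 BM, at 2.48-fold to 5.39-fold.
Acaca (chromosome 11, 84129672 to 84401651), which encodes the cytosolic carboxylase, had no peak at its gene start except in B6 replicate 1. That peak of 5.79-fold lies within 1 kb of the start of Tada2a as well and cannot be assigned to either gene. The acetylated start of Acaca was 50.2 kb downstream. The region from 50.2 to 51.8 kb was called in every library, at 7.58-fold and 3.46-fold in B6, 4.40-fold and 7.08-fold in MSM, 4.06-fold in F1 BM and 3.50-fold in F1 MB. The region before that start, 49.2 to 49.8 kb, was called in 5 libraries, all but F1 MB. A region at 36.9 to 37.9 kb, which also lies near the start of Gm11437, had 5.91-fold and 6.73-fold enrichment in MSM, 4.33-fold in F1 BM and 2.20-fold in B6 replicate 1, and no peak in B6 replicate 2 or F1 MB.

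Fasn (chromosome 11, 120805846 to 120824547) was covered from 0.459 kb after its start to as far as 3.24 kb. Over the start base itself a peak was called in B6 replicate 1 (5.61-fold) and MSM replicate 2 (4.76-fold). Fold enrichment at the start was 11.5 in B6 replicate 1, 3.26 in B6 replicate 2, 12.4 in MSM replicate 1, 10.5 in MSM replicate 2, 6.79 in F1 BM and 12.4 in F1 MB. B6 replicate 2 was far below the other 5 libraries. Its percentile there was 11.2 within its own list, against 92.7 to 99.2 in the other libraries. F1 MB, also a short list, had Fasn at percentile 99.2. The peak upstream of Fasn was called in B6 replicate 1, both MSM libraries and F1 BM, and not in B6 replicate 2 or F1 MB.

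Thrsp (chromosome 7, 97412938 to 97417730), which encodes the thyroid hormone responsive protein Spot 14, had 6.01-fold and 6.14-fold enrichment at its start in B6, 8.14-fold and 7.999-fold in MSM, 6.46-fold in F1 BM and 4.57-fold in F1 MB. In raw fold the 2 strains did not overlap at this start, the single member start of 7 with a peak in all 4 parental libraries of which this held. Over all 5579 such genes, the fold was higher in both MSM libraries at 8.59% and higher in both B6 libraries at 11.2%. The raw fold differed by 1.99 (MSM mean 8.07 ± 0.101, B6 mean 6.08 ± 0.0965, SD, n = 2 each; two-sided exact permutation p = 0.3333, the smallest this design allows). On the normalised log2 scale the difference fell from 0.42 to 0.0081 without B6 replicate 1. Within its own list, the B6 peak stood at percentiles 60.4 and 81.1 and the MSM peak at 87.7 and 85.7. By percentile, both MSM libraries also lay above both B6 libraries at the starts of Fasn, Acacb and Acly. How many of all genes split in this way by percentile was not computed, so no pathway difference can be read from these starts. The values at Fasn were 92.7 and 11.2 in B6 against 98.0 and 94.5 in MSM. At Acacb they were 89.5 and 91.1 against 95.1 and 99.97, and at Acly 91.0 and 84.4 against 93.0 and 91.9. The strains overlapped by percentile at Srebf1, Elovl6 and Me1. A region 1.35 to 1.86 kb upstream of Thrsp was called in every library but B6 replicate 2, at 3.24-fold to 4.23-fold.

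**Figure D3:**
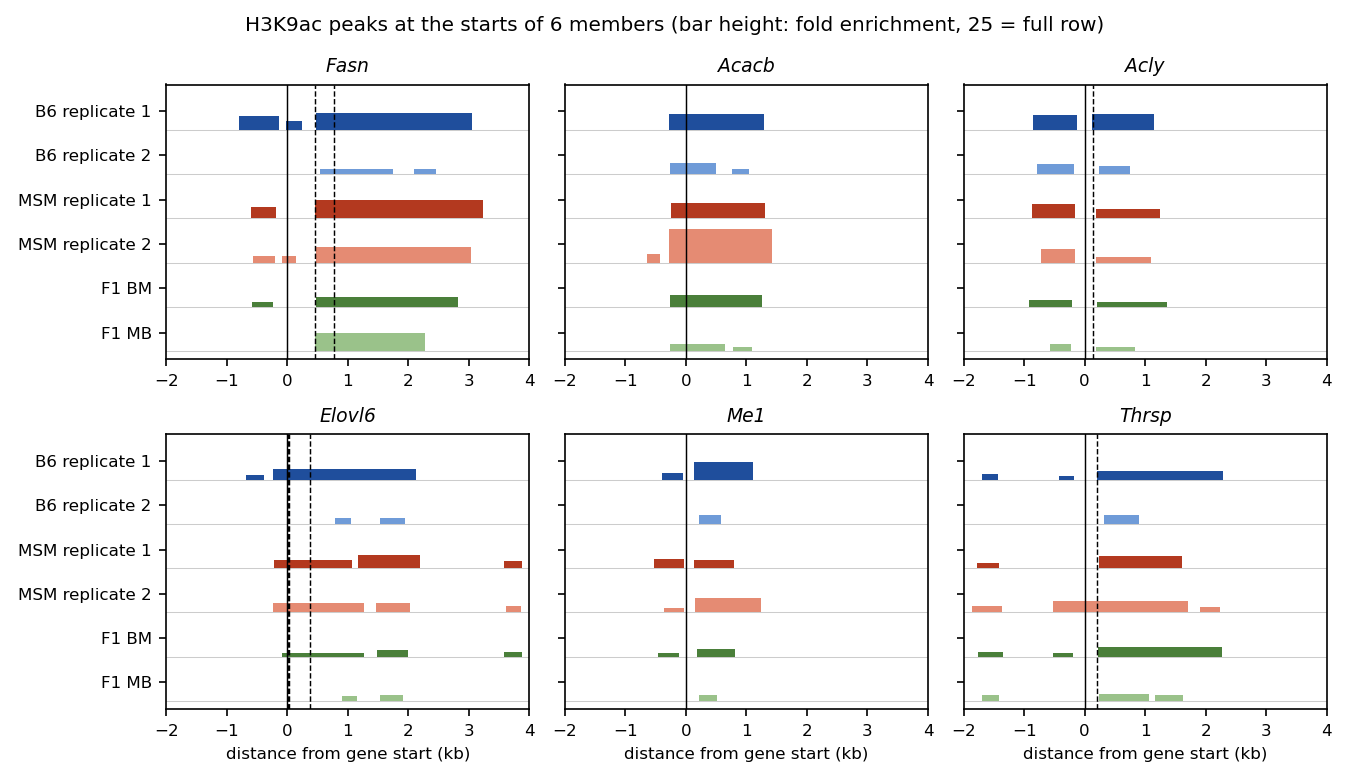
H3K9ac peaks of the 6 libraries at the starts of Fasn, Acacb, Acly, Elovl6, Me1 and Thrsp by distance from the gene start in kb, with bar height giving fold enrichment (25-fold fills a row) and dashed lines other annotated transcript starts. The Acacb bars cross the start in every library, the Acly and Me1 bars stop on either side of it, and the Fasn bar of B6 replicate 2 is low.

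Elovl6, which extends palmitate to stearate (chromosome 3, 129532355 to 129638495), had peaks in every library within the region between -0.243 and 2.20 kb from its start. The strongest peak there was 7.16-fold and 3.80-fold in B6, 8.53-fold and 6.51-fold in MSM, 4.30-fold in F1 BM and 4.04-fold in F1 MB. A second region in its intron, 3.58 to 3.88 kb from the start, had 4.92-fold enrichment in MSM replicate 1, 4.28-fold in MSM replicate 2 and 3.45-fold in F1 BM. It had no peak in either B6 library or in F1 MB. The stretch under both MSM peaks is chr3:129535974-129536222 on the plus strand, within the intron, and is printed from the reference (B6) genome because it is the only MSM-specific region of the pathway in the lists as deposited.
Elovl6 intronic region: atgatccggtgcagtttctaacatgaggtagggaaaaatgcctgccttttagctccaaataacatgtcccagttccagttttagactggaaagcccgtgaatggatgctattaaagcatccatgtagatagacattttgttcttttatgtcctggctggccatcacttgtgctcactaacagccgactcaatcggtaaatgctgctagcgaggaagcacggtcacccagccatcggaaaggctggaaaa
It has 7 CpG dinucleotides and none of the motifs searched. Bases that differ in MSM are not known from these files.

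Scd1, which introduces the double bond that gives oleate and palmitoleate (chromosome 19, 44394455 to 44407879), was the member with the clearest split between strains. A peak beginning 0.418 kb after its start had 7.83-fold enrichment in B6 replicate 1 and 4.73-fold in B6 replicate 2. Neither MSM library had a peak anywhere in the Scd1 window. Both hybrids had one, at 3.44-fold in F1 BM and 6.32-fold in F1 MB. Lists differed in scale, with a median fold of 5.23 and 4.49 in B6, 3.38 in F1 BM and 4.57 in F1 MB. Within its own list the peak stood at percentiles 76.9 and 56.2 in B6, 52.3 in F1 BM and 79.8 in F1 MB. Its width was 2114 bp in B6 replicate 1 and 392, 390 and 628 bp in B6 replicate 2, F1 BM and F1 MB. In bulk liver, fewer cells carrying the mark and less of it per cell cannot be told apart.
Outside the window, 5.88 kb beyond the end of Scd1, a further region followed the same libraries. Its fold enrichment was 9.64 and 3.70 in B6, 5.18 in F1 BM and 4.31 in F1 MB, with no peak in either MSM library. A start peak in both B6 and neither MSM library was found at 185 of 9941 genes with a start peak in a parental library (1.86%), and Scd1 was the single member among them. The opposite pattern was found at 64 genes (0.644%), none of them a member. This imbalance turned when the lists were cut to the same covered length, with 169 genes in the B6 pattern and 306 in the MSM pattern. Both F1 libraries had a start peak at 51 of the 185 genes. Ranked by the lower of the B6 folds, Scd1 was number 50 of the 185. The neighbouring paralogs Scd2, Scd3 and Scd4 had no start peak in any library. Reads of both strains were mapped to B6 sequence, and reads shared with these similar genes could be placed at another copy or lost. The part of mapping in the Scd1 pattern was not tested.

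**Figure D4:**
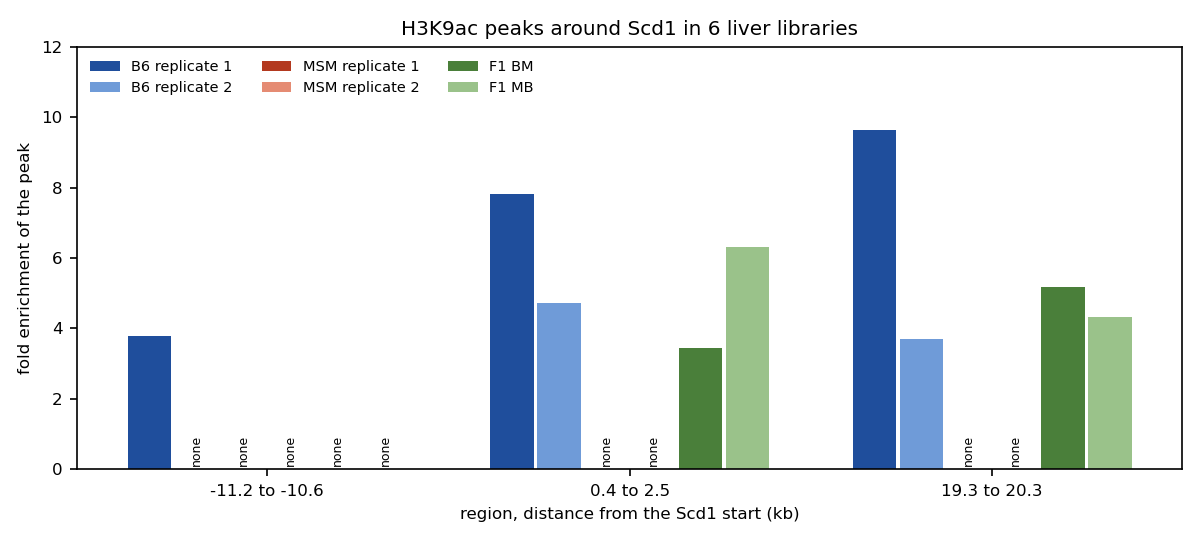
Fold enrichment of H3K9ac peaks in the 3 regions called around Scd1, by distance from its start in kb, with 1 bar per library and "none" where no peak was called. The start region and the region 19.3 to 20.3 kb away have bars in both B6 and both F1 libraries and none in MSM.

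In regions rather than genes, the peaks of the members merged into 35 of the 27334 regions of the 6 lists. A peak in all 6 libraries was found in 13 of the 35 (37.1%), against 25.3% of all regions, and 11 (31.4%) were called in 1 library, against 30.6% of all regions. One region, that of Scd1, was B6-specific, meaning present in both B6 and neither MSM library, against 3.06% of all regions. One region, that of the Elovl6 intron, was MSM-specific, against 3.08%. When every list was cut to the same number of peaks or the same covered length, Scd1 stayed the single B6-specific region while the MSM-specific regions became 2 regions of Acaca. The share of all regions in these cut lists was not computed, so these counts cannot be set against it. Leaving out B6 replicate 2 gave 8 B6-specific regions of the 35, against 27.1% of all regions, and leaving out B6 replicate 1 gave 7 MSM-specific regions, against 15.2%. MSM-specific regions were 2 without MSM replicate 1 (7.36% of all regions), 4 without MSM replicate 2 (7.06%) and 1 without B6 replicate 2 (3.12%). A single region was B6-specific without B6 replicate 1 (3.34%), MSM replicate 1 (4.68%) or MSM replicate 2 (4.64%).

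Summed over the members in the lists as deposited, the strains overlapped. The length under peaks was 29837 bp and 13036 bp in B6, 22750 bp and 23801 bp in MSM, 24344 bp in F1 BM and 14729 bp in F1 MB. The MSM mean exceeded the B6 mean by 1839 bp, against a pooled within-strain SD of 8417 bp (two-sided exact permutation p = 1). Without B6 replicate 2 the difference was -6562 bp, and without B6 replicate 1 it was 10240 bp. The peaks numbered 30 and 19 in B6, 28 and 28 in MSM, 27 in F1 BM and 25 in F1 MB (difference 3.5, pooled SD 5.5, two-sided exact permutation p = 1). Without B6 replicate 2 MSM had 2 peaks fewer, and without B6 replicate 1 it had 9 more. With the same covered length in every list the members' peaks covered 17627 bp and 13036 bp in B6 and 20353 bp and 20681 bp in MSM, a difference of 5185.5 bp (pooled SD 2301 bp, two-sided exact permutation p = 0.3333). In lists of the same number of peaks the strains overlapped in covered length (26505 bp and 13036 bp in B6, 20894 bp and 21282 bp in MSM). They also overlapped with the stricter threshold (28343 bp and 11703 bp in B6, 21781 bp and 22531 bp in MSM). When each list was cut to its 11619 strongest peaks the members had 20 and 19 peaks in B6 and 23 and 21 in MSM (pooled SD 1.12, two-sided exact permutation p = 0.3333). With the same covered length the peaks numbered 11 and 19 in B6 and 21 and 19 in MSM. With the stricter threshold they numbered 25 and 15 in B6 and 25 and 25 in MSM. In neither of these settings were both MSM counts above both B6 counts.
As a share of all covered length in the same library, a measure added after seeing the data, the members took 0.186% and 0.208% in B6, 0.235% and 0.246% in MSM, 0.199% in F1 BM and 0.198% in F1 MB. Both MSM libraries were above the other 4, as they also were in lists of the same number of peaks (0.270% and 0.277%, against 0.233% and 0.208% in B6). The strains differed by 0.0436 percentage points against a pooled SD of 0.0119 (two-sided exact permutation p = 0.3333, the lowest the 6 assignments of libraries can give).

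Fold enrichment at the start was compared between MSM and B6 with limma across the 5579 genes with a start peak in all 4 parental libraries, after quantile normalisation of log2 values. Benjamini-Hochberg adjustment over these genes gave 0 genes higher in MSM (0%) and 0 higher in B6 (0%) at an adjusted p of 0.05, with 440 genes at an unadjusted p under 0.05. In the 12 alternative fits of limma between 55 and 592 genes had an unadjusted p under 0.05, and 9 of the fits again called 0 genes. Of the 10 members 7 could be tested and none was called, also in the alternative fits. In simulated data the fit called 24 of 100 planted log2 differences of 1, so differences of the members' size could be missed. Scd1, Mlxipl and Acaca lacked a start peak in at least 1 parental library.
The largest log2 difference among the tested members was that of Fasn, 0.94 ± 0.35 (SE, n = 2 each, limma adjusted p = 0.564, with a range of 0.376 to 0.9999 over the alternatives). It was 0.39 without B6 replicate 2 and 1.49 without B6 replicate 1. With the peak whose summit is nearest the start it was 0.58, below Thrsp (0.89), Elovl6 (0.83) and Acacb (0.73). In the main fit Acacb followed with 0.73 ± 0.34 (limma adjusted p = 0.622), which was 0.25 without MSM replicate 2 and 1.18 without MSM replicate 1. Thrsp and Srebf1 had log2 differences of 0.42 each, Elovl6 0.32, Acly 0.18 and Me1 -0.063. The Thrsp value was 0.0081 without B6 replicate 1 and 0.82 without B6 replicate 2, and 0.89 with the peak whose summit is nearest the start. That of Srebf1 was 0.77 without B6 replicate 1 and 0.043 without B6 replicate 2. That of Elovl6 was 0.19 without B6 replicate 2, 0.83 with the peak whose summit is nearest the start and 0.60 with the strongest peak at any annotated start. For 6 of the 7 members the value was above 0, and their median was 0.42, against a median of 0.0026 and 50.3% above 0 over all genes tested. The members' median was 0.21 without B6 replicate 2 and 0.25 without MSM replicate 2.
With the strongest peak at any annotated start in place of the gene start, a choice made after seeing the data, 9 members could be tested. Srebf1 then had -0.48 ± 0.31 (SE, limma adjusted p = 0.718), Mlxipl -0.32 and Acaca 0.22, and 0.22 was also the median of the 9. The sign of Srebf1 thus differed between the outer start and the strongest start.

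**Figure D5:**
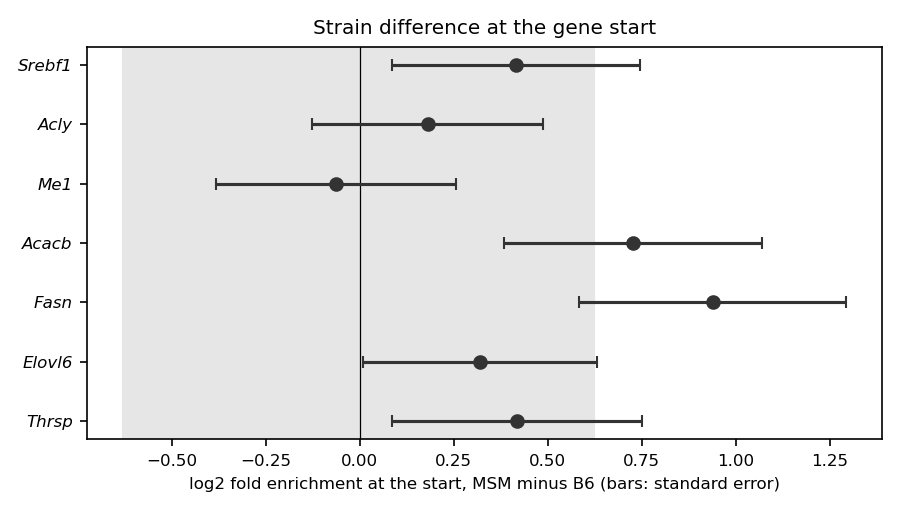
Difference in log2 fold enrichment at the gene start, MSM minus B6, for the 7 members with a start peak in all 4 parental libraries (points, with standard error bars from limma). The grey band holds the values from the 5th to the 95th percentile of 5579 genes, -0.63 to 0.62, and the Fasn and Acacb points lie to its right.

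The width of the acetylated domain at the start, made by joining peaks at most 500 bp apart, was measured in all 4 parental libraries for 5 members. None was wider in both MSM than in both B6 libraries, and none showed the opposite, against 5.42% and 16.7% of 5186 genes. The Srebf1 outer start was 2330 bp and 747 bp wide in B6 and 1515 bp and 1605 bp in MSM. Thrsp was 2709 bp and 589 bp in B6 and 1364 bp and 2760 bp in MSM. B6 replicate 1 was the wider B6 library for all 5 members.

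A wider list of 40 lipogenic genes (substrate and NADPH supply, elongation and desaturation, activation, glycerolipid assembly and regulators) had a start peak in all 6 libraries at 27 genes, and at 31 with any annotated start. Limma tested 29 of them and called 0 in either direction, with 1 at an unadjusted p under 0.05 and 17 above 0 (median log2 difference 0.086). The highest values were Elovl1, an elongase, with 0.48 and Acss2, which makes acetyl-CoA from acetate, with 0.47. The lowest were Idh1, a source of NADPH, with -0.83 ± 0.33 (SE, limma adjusted p = 0.592), and Agpat2, of glycerolipid synthesis, with -0.67.
Elovl3, Scd2 and Lpin1 had no peak at their gene start in any library. Lpin1 (lipin 1), of glycerolipid assembly, had one at another annotated start in all 6, from 7.66-fold in F1 MB to 19.4-fold in B6 replicate 1. Elovl3 and Scd2 had none at any annotated start.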

How the data were processed

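Per the labels, H3K9ac chromatin of formaldehyde-fixed liver was sequenced as 50-bp read pairs. The authors' methods name Trim Galore and Bowtie 2 with mm10, and the submitters' processing notes name Trim Galore, HISAT2, SAMtools and MACS2 with mm10 and GRCm38; which aligner made these lists could not be settled. Input libraries were not analysed here, and the use of input as control is not given in the sources used here. The deposited lists, 1 per library, give each peak a fold enrichment (a linear ratio), the −log10 of its p-value and q-value, and a score; the deposited fold was the value measured, and the −log10 values served to filter and rank peaks. The lowest −log10 q was 1.30 to 1.35 in every list. The lists give no read counts per peak, so no interval or floor was computed.

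Peaks were joined to GENCODE M21 genes, taking the longest gene of each symbol and its start, with an overlap of at least 1 bp. A start peak lies within 1 kb of the start, and a domain within 500 bp. Analyses used Python 3.11.15, numpy 2.4.6, scipy 1.17.1, matplotlib 3.10.9, R 4.3.3 and limma 3.58.1, with no pseudocount. The strains were compared over 2 libraries each. Exact permutation p-values come from 6 assignments of these libraries, and the smallest possible is 0.3333. Limma p-values set a difference against the spread between these libraries, moderated over all genes tested. The scripts were tested on simulated data, in which quantile normalisation shrank the larger planted differences. Limma called 93 of 100 planted log2 differences of 2 and 24 of 100 of 1. Alternatives were lists cut to 11619 peaks or to 6.28 Mb each, a −log10 q of at least 5, a 100-bp overlap, other windows and joins, other normalisations and fits, a replicate block and each replicate left out.

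The members and all lists were chosen with earlier results of these data known. All members were named; from the wider list, genes with no start peak and the 2 largest differences in each direction, except 1 gene that is not reported here. Promoters were to be those of the 3 highest and 2 lowest members by fold with a start domain in every library and of members lacking a start peak; the Acaca and Acacb windows lie elsewhere, Scd1 is not shown, and Fasn was added.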

Additional observations from a re-analysis of the deposited data

How the results depend on the processing

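Of 99 repeats of the main results under another setting, 85 kept their direction or, for counts, stayed within 1.5 times the main count. Many of the 85 were limma call counts of 0 set against 0, and the replicate block cannot change a difference of means. The tally is therefore no measure of how stable the results are. The members' covered length, MSM minus B6, ranged from -6562 to 10240 bp with 1 replicate left out, their number of peaks from -2 to 9, and their percent of all covered length from 0.0329 to 0.0544 (0.0826 with the same covered length); the first 2 turned without B6 replicate 2. MSM-specific regions were 2 with the same number of peaks, 2 with the same covered length and 2 with the stricter threshold. For these settings the share of all regions was not computed. With 1 replicate left out MSM-specific regions were 1 to 7 and B6-specific regions 1 to 8. Limma called 7 genes higher in MSM and 4 in B6 when genes with peaks in at least 3 of 4 libraries were tested, and 0 and 2 with any annotated start (chosen after seeing the data). None was a member. Among members, log2 differences turned for Acly (-0.48, nearest summit), Srebf1 (-0.48, any annotated start) and Me1 (-0.33 to 0.22, leaving out a replicate). Domain width, MSM minus B6, turned without joining for Srebf1 (-267.5 bp) and Acly (-179 bp). With a replicate left out it ranged from -770 to 813 bp for Srebf1 (also -23.5 bp without MSM replicate 2), -35 to 433 bp for Acly, -58 to 1092 bp for Me1 and -647 to 1473 bp for Thrsp (also -285 bp without MSM replicate 2). Genes with a start peak in one strain only numbered 378 (B6) and 198 (MSM) in lists of the same number of peaks, where Scd1 kept its pattern. With the same covered length they numbered 169 (B6) and 306 (MSM), and Scd1 lost its F1 BM peak. The cause of these changes was not tested.

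Whether the replicate numbers pair the samples was not settled. Across genes, normalised deviations of same-numbered libraries correlated at -0.0183, which cannot show whether those libraries were processed together. With the replicate block, limma called 4 genes higher in MSM and 4 in B6, no member among them. The covered length difference of 1839 bp and the peak difference of 3.5 cannot change under pairing (both exact sign-flip p = 1).

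Sequencing depth was not used here, so an absent peak cannot be told from a weak one.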
